A study of Mus musculus with 16 samples.

Results

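The uninjured arm of a mouse kidney study was examined, in which whole-kidney RNA from animals given PJ34 (group NP) was compared with RNA from animals given vehicle (group NV). The groups were taken from the sample titles, and they hold 4 libraries each, 8 of the 16 libraries in the series. All were made from kidney of male C57BL/6 mice aged 12 weeks, with no surgery. The other 8 libraries came from mice with ischemia reperfusion surgery, given vehicle or PJ34, and do not enter the comparison. In the study, the NP and NV mice served as controls for the injured animals when the long-term action of PJ34 was evaluated. The labels number the replicates without saying that each is a separate animal, and p-values therefore refer to library-to-library spread, which may be partly technical. The dose, the route and the day of collection are not given in the labels.

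PJ34 is a small molecule that blocks the catalytic site of poly(ADP-ribose) polymerases. These enzymes, Parp1 above all, use NAD to build chains of ADP-ribose on themselves and on chromatin proteins when DNA is broken, and heavy activation drains the NAD pool of a cell. The kidney cortex is made mostly of proximal tubule cells, which reclaim filtered solutes, burn fatty acids in dense mitochondria and make glucose. Downstream segments, the loop of Henle, the distal tubule and the collecting duct, set the final salt, water and acid content of urine.

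The 8 libraries were shallow. The NP libraries held 1359853, 1639849, 1161138 and 1502686 counts and the NV libraries 1408130, 1393716, 1404195 and 1538622. The mean totals differed by -20300 counts (NP minus NV), which is less than the spread between libraries (exact permutation test over 70 assignments, two-sided p = 0.83, smallest possible p = 0.0286). Mitochondrial transcripts took 19.26 to 23.215% of the counts. A set of 6 satellite-like gene models around Gm10800 took 13.01 to 21.54%, against 0.72 to 1.47% in the 6 deeper libraries of the series. Their share was 16.9 ± 2.76% in NP and 17.2 ± 2.94% in NV (SD, n = 4), so that it did not separate the groups. NV replicate 2 had the largest share and NP replicate 2 the smallest. Tissue identity was checked against marker lists. Tested members of all 8 nephron lists were present, while the adrenal cortex and skeletal muscle lists had 0 tested members and summed to at most 15.5 and 5.32 CPM (counts per 1000000, scaled by TMM) in any library.

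Almost no gene separated PJ34 from vehicle. Of 10772 genes tested, 3 passed an adjusted p of 0.05 (edgeR quasi-likelihood test), which is 0.0278% of them. Rab43, a small GTPase of vesicle transport, was higher in NP. Hist2h2aa2, which encodes a core histone H2A, and the gene model Gm45140 were lower in NP. At an unadjusted p under 0.05 there were 355 genes (3.3%), fewer than the 538.6 that the threshold alone would give. The values of the groups did not overlap in 269 genes (2.5%).

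Each of the 3 called genes has a transcript sharing most 31-base words with another gene, so the sequences are shown before the values. The coding sequences of Hist2h2aa1 and Hist2h2aa2 are both 393 bases long and differ at 0 positions. In the GRCm38 annotation (GENCODE M21) each lies in a single exon, at chr3:96245581-96245973 on the plus strand for Hist2h2aa1 and at chr3:96239858-96240250 on the minus strand for Hist2h2aa2. The sequence is the same in both, and its first 180 bases are printed once, with nothing in capitals because nothing differs.
Hist2h2aa1 and Hist2h2aa2, coding bases 1 to 180: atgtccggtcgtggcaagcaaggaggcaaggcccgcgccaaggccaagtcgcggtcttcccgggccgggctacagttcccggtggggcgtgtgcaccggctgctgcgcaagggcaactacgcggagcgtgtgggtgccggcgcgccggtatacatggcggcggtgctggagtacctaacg
Rab43 (transcript Rab43-203, chr6:87788853-87811779, minus strand) and Gm45140 (transcript Gm45140-201, chr6:87792446-87821631, minus strand) are overlapping gene models. They share a coding run of 147 bases, of which 145 lie at the same exonic positions, chr6:87794653-87794797. Capitals mark the shared run, and the lower-case flanks are coding bases that differ between the models. The coding sequence of Gm45140-201 ends with the run. Over all exons these 2 transcripts have 579 positions in common, of 4605 in Rab43-203 and 790 in Gm45140-201.
Rab43: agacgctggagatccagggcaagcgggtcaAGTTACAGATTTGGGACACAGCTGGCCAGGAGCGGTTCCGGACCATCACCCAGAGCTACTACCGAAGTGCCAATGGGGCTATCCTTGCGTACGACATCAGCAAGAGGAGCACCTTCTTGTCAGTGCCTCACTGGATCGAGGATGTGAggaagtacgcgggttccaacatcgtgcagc
Gm45140: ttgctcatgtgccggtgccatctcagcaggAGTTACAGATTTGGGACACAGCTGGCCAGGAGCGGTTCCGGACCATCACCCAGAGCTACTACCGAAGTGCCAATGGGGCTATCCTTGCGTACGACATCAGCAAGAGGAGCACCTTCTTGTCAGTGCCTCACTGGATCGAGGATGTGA
Shared words of 31 bases were counted, on a sample of the words, for the single transcript of a gene that shares most. By that measure 96.3% of the words of a Rab43 transcript also occur in Gm45140, and 82.8% of the reverse. This does not hold for Rab43-203, most of whose exonic positions lie outside Gm45140-201. Every counted word of Hist2h2aa2 occurs in Hist2h2aa1, and 87.9% of the reverse. A read from such a stretch does not say which model it came from, and the deposited counts are estimates that divide it.

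The counts of each pair moved in opposite directions between the groups. Rab43 had 31, 44, 33 and 38 counts in the NP libraries and 4, 8, 0 and 16 in the NV libraries. Gm45140 had 7, 0, 0 and 0 counts in NP and 41, 33, 33 and 44 in NV. For both genes the groups stood apart without overlap. The log2 difference (NP minus NV, as everywhere below) was 2.38 ± 0.40 (SE) for Rab43, with an adjusted p of 0.038, and -4.32 ± 0.53 for Gm45140 (edgeR). The value for Gm45140 rests on the 7 counts of NP replicate 1. Without that library it was -8.26, with the other NP libraries at 0, and over all 8 fits that leave out 1 library it ran from -8.26 to -3.84, so that its size is not a measured fold. Rab43 passed in 2 of the 8 fits that leave out 1 library, those without NV replicate 3 and without NV replicate 4, and its adjusted p reached 0.26 in the others. Gm45140 and Hist2h2aa2 passed in all 8. With all 16 libraries of the series in 1 fit none of the 3 passed, and DESeq2 called only Hist2h2aa2 of them. Rab43 also missed the threshold with limma-voom (adjusted p = 0.21), and with the number in the library codes as a term (adjusted p = 0.081, edgeR). That number is 12 for replicates 1 and 2 and 1 for replicates 3 and 4 of both groups, and the labels do not say what it stands for. Letters follow it (L, R or RL), which differ between libraries of a group that share a number and are not explained either.

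Summed over both models, the difference between the groups disappeared into the spread. Rab43 and Gm45140 together had 38, 44, 33 and 38 counts in NP and 45, 41, 33 and 60 in NV, which is 28.4 ± 2.89 CPM in NP and 32.4 ± 5.72 CPM in NV (SD, n = 4). The ranges overlap. With Isy1, a splicing factor gene linked to them by shared words, the summed difference was 0.10 ± 0.15 on the log2 scale (95% interval -0.20 to 0.41).

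The histone pair behaved alike. Hist2h2aa2 had 0 counts in every NP library and 14, 24, 14 and 18 in NV. Taking 3 counts over the whole NP group as the floor, it was at least 23.3-fold lower in NP. Hist2h2aa1, its identical partner, had 23, 40, 18 and 23 counts in NP and 12, 0, 0 and 10 in NV, with a log2 difference of 2.22 ± 0.51 that missed the threshold (adjusted p = 0.78). Their sum was 18.7 ± 4.02 CPM in NP and 16.8 ± 4.12 CPM in NV (SD, n = 4), again with overlapping libraries. Their sequence group has 7 models and also holds Hist1h2al, Hist2h2ac, Hist2h3b, Hist2h3c2 and the numbered model Gm20634. Summed over all 7 the difference was 0.10 ± 0.18 (95% interval -0.27 to 0.48).

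**Figure D1:**
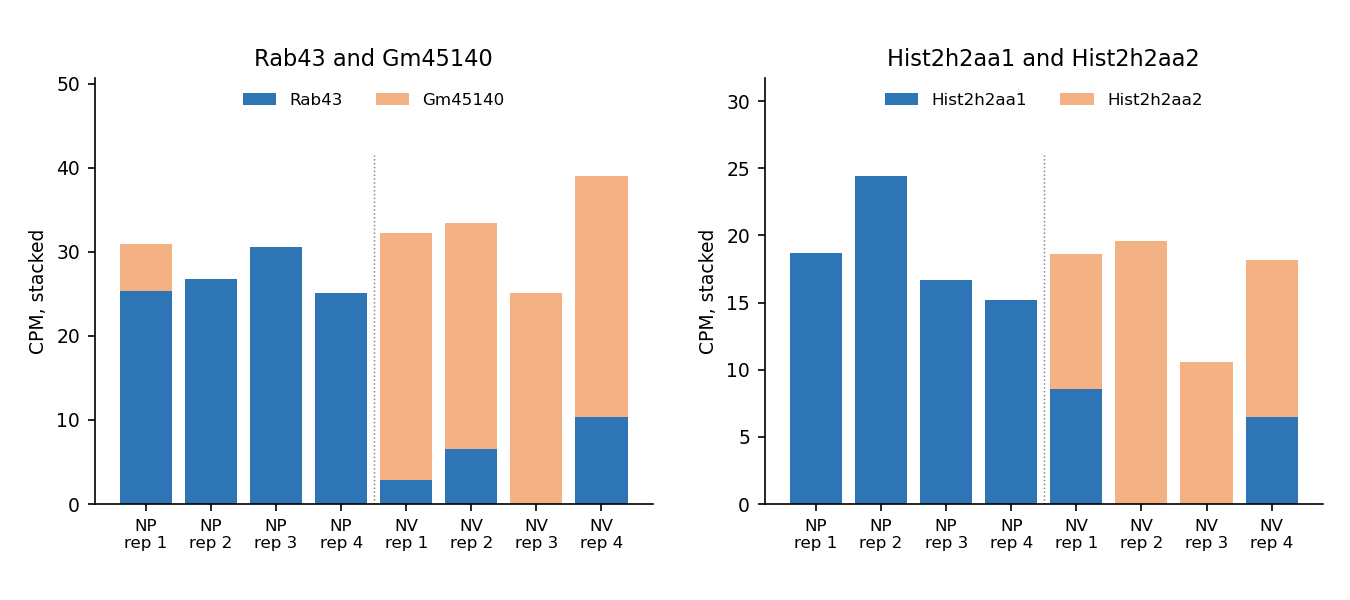
Stacked CPM in each of the 8 libraries for Rab43 with Gm45140 (left) and Hist2h2aa1 with Hist2h2aa2 (right). The colours trade places between NP and NV, while the heights of the bars overlap, from 25.1 to 31 CPM in NP and 25.1 to 39 CPM in NV for the first pair.

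With the counts of all such sequence groups summed, 0 of 10424 genes or groups passed (0.0%), 375 had an unadjusted p under 0.05 and the lowest adjusted p was 0.54 (edgeR). Genes linked to another gene by such shared words, directly or through other genes, make up 1429 of the 10772 tested (13.3%). They were 8 of the 10 genes with the largest differences, 20 of the 25 largest and 50 of the 100 largest. The part of shared reads in each of these differences was not tested beyond the sums given here. Some genes outside the 3 calls also had large differences that were small in a sum. Gm10222, a numbered model whose words all occur in mt-Nd4l, had 424 and 1600 counts in NP replicates 2 and 4 and 0 in the other 6 libraries, while its sum with mt-Nd4l, a subunit of respiratory complex I, was 2030 ± 322 CPM in NP and 1740 ± 224 CPM in NV. It was below the count filter, and DESeq2 on all genes called it. Klk1b21 and Klk1b24, members of the kallikrein protease family, are in no common sequence group. They differed by -2.19 and 2.65 on the log2 scale, and their sum was 20.1 ± 2.27 against 23.8 ± 6.17 CPM. With sequence groups summed they stayed apart, at -2.20 and 2.66 (unadjusted p = 0.00031 and 0.00026, adjusted p = 0.81 for both, edgeR), among the smallest p of that fit.

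**Figure D2:**
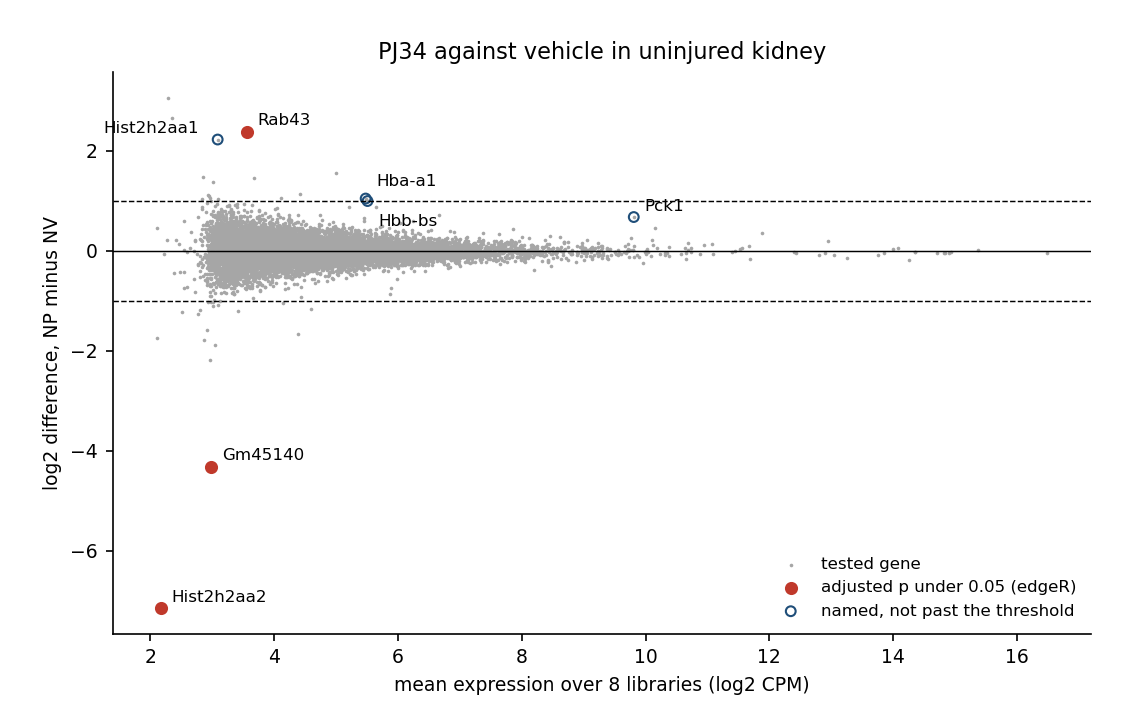
Log2 difference between NP and NV for each of 10772 tested genes against its mean expression over the 8 libraries, with dashed lines at a 2-fold difference. The 3 called genes stand at low expression far from the cloud, and above a mean of 8 log2 CPM no gene reaches the dashed lines.

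How small an effect the data exclude was read from the 95% intervals of the log2 differences. For 9389 of the 10772 genes (87.2%) the whole interval lay within a 2-fold difference either way. For 4985 (46.3%) it lay within 1.5-fold and for 922 (8.56%) within 25% (a ratio of 5 to 4 either way). By a pair of one-sided tests with Benjamini-Hochberg adjustment, differences of 2-fold or more were rejected for 9896 genes (91.9%) and of 1.5-fold or more for 4829 (44.8%). The median half-width of the interval was 0.46 on the log2 scale, a factor of 1.37.

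The bound depends on how strongly a gene is expressed. Among 3473 genes with a mean of 3 to 4 log2 CPM, which have a median of 14.0 counts per library, the median half-width was 0.67 and 68.1% of intervals lay within 2-fold. Among 2127 genes at 5 to 6 log2 CPM the half-width was 0.33 and 85.8% lay within 1.5-fold. The 280 genes at 8 log2 CPM and over had a half-width of 0.23, with 57.1% within 25% and 279 within 2-fold. The exception among these 280 was Pck1. Genes below the count filter were not tested here. With no filter edgeR called 87 of 39778 genes, and 25.4% of the intervals lay within 2-fold. DESeq2 on all genes called 4, of which Hist2h2aa2 is 1 of the 3 above and Fam205a3, Gm1818 and Gm10222 lie below the filter. Fam205a3 had 0 counts in every NP library and 3 to 15 in NV, but with Fam205a1 and Fam205a2, the others of its sequence group, the sums were 7.82 ± 4.24 CPM in NP and 9.01 ± 4.54 CPM in NV. Gm1818 had 0 counts in every NP library and 11, 4, 20 and 5 in NV. Cdkn1a, the p53 target that arrests the cell cycle, was below the filter with 1 to 5 counts in NP and 3 to 7 in NV. Havcr1, the tubular injury marker KIM-1, had 1 to 4 counts in NP and 2 to 11 in NV, and Lcn2, the injury marker NGAL, had 1 to 6 and 0 to 5.

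**Figure D3:**
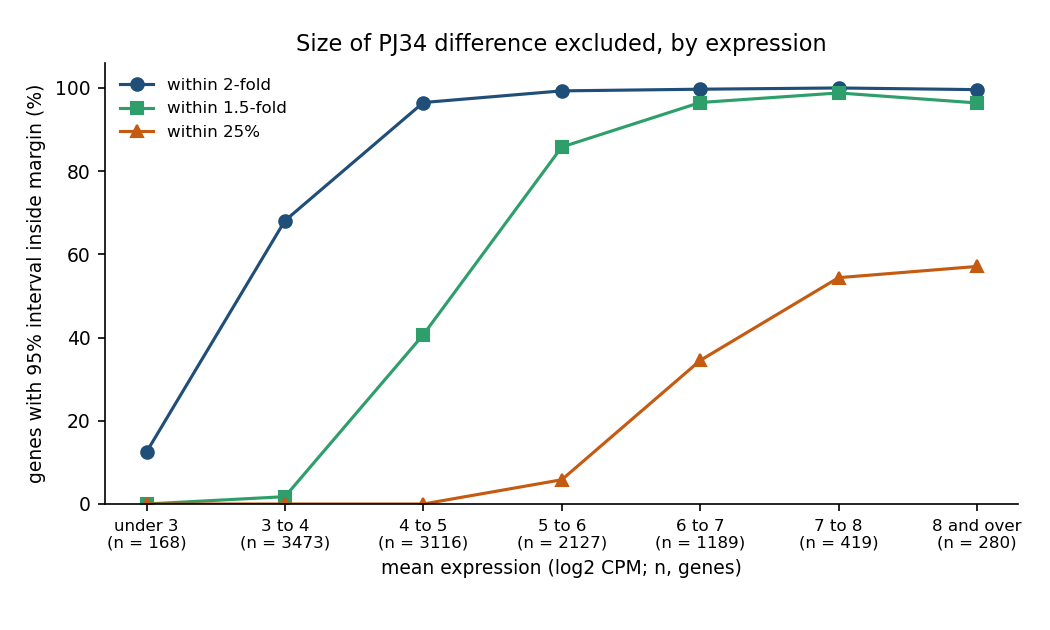
Percentage of tested genes whose 95% interval of the NP against NV difference lies inside a margin of 2-fold, 1.5-fold or 25%, by bins of mean expression in log2 CPM. The 2-fold line is at 96.5% or more from 4 to 5 log2 CPM on, whereas the 25% line reaches 57.1% in the top bin.

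Among abundant genes Pck1, the rate-limiting enzyme of gluconeogenesis in proximal tubule, came nearest to a change. Its level was 1240, 1740, 855 and 788 CPM in NP and 681, 826, 707 and 703 CPM in NV. The 2 highest values are NP replicates 1 and 2, and NP replicate 4 lies below NV replicate 2, so that the groups overlap. The log2 difference was 0.67 ± 0.18 (95% interval 0.28 to 1.05, unadjusted p = 0.0017, adjusted p = 1.0, edgeR). Without NP replicate 2 it was 0.40. Within the libraries coded 12 (replicates 1 and 2) and within those coded 1 (replicates 3 and 4) both NP values lay above both NV values, and with that number as a term the difference was 0.60 ± 0.15 (adjusted p = 1.0, edgeR). With sequence groups summed it had the smallest p of all (8.7e-05, adjusted p = 0.54).

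Haemoglobin transcripts, which mark red cells left in the tissue, were the other abundant set near a difference. Hbb-bs and Hbb-bt, the adult beta chains, summed to 45.6, 133, 59.3 and 72.6 CPM in NP and 33.7, 35.1, 60.0 and 38.4 CPM in NV. Hba-a1 and Hba-a2, the alpha chains, summed to 66.8, 175, 83.5 and 93.7 CPM in NP and 63.1, 48.1, 95.8 and 48.1 CPM in NV. NP replicate 2 was the highest library in both sums, and NV replicate 3 was above 2 or 3 of the NP libraries. Differences of the sums were 0.93 ± 0.21 (adjusted p = 0.54) and 0.75 ± 0.20 (adjusted p = 0.95). Without NP replicate 2, Hbb-bs alone went from 0.99 to 0.56 and Hba-a1 from 1.04 to 0.61. In whole tissue, fewer cells of a type and less RNA per cell cannot be told apart.

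NP replicate 2 was thus the highest of the 8 libraries in Pck1 and in both haemoglobin sums. It was also the deepest of the 8 libraries and had the lowest share of Gm10800-like counts. The number after S in the library names is 32 for it, 1 to 7 for the other 7 NP and NV libraries and 33 to 40 for the injured kidneys, and the labels do not say what this number stands for. The part of these properties in its high values was not tested. With that share as a term in the fit, the differences were 0.62 for Pck1, 0.87 for Hbb-bs and 0.91 for Hba-a1.

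Beyond these, the genes nearest to a change by the smallest p were lower in level than Pck1, and none passed (adjusted p = 1.0 for each, edgeR). They were picked for a small p, so their values are a description. Ruvbl2, an ATPase of chromatin remodelling complexes, had 8.15, 12.2, 11.1 and 10.6 CPM in NP and 3.58, 4.08, 5.32 and 3.25 CPM in NV. These values rest on 10, 20, 12 and 16 counts in NP and 5, 5, 7 and 5 in NV. Rnf103, a ubiquitin ligase of the endoplasmic reticulum, had 25.3, 37.8, 34.3 and 33 CPM against 25.1, 17.9, 19.8 and 16.9 CPM. Fam114a2 was at 32.1 ± 4.40 CPM in NP and 21 ± 0.912 CPM in NV. None of the 3 overlapped between the groups, though Rnf103 in NP replicate 1 and NV replicate 1 was nearly equal. Their log2 differences were 1.37 ± 0.34, 0.72 ± 0.19 and 0.61 ± 0.17. Hmgb1, an abundant chromatin protein, and Atn1, a transcriptional corepressor, completed the upper side with 0.41 ± 0.13 and 0.88 ± 0.27. Both belong to sequence groups, of 27 and 3 models, and with these summed the differences were -0.12 (95% interval -0.35 to 0.10) and -0.08 (-0.31 to 0.15).

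On the lower side, the 10 genes with the smallest p ran from -0.40 to -1.11. Anapc5, a subunit of the ubiquitin ligase that ends mitosis, had 60.3, 67.0, 62.1 and 71.2 CPM in NP and 86.8, 95.4, 74.5 and 91.0 CPM in NV. Its libraries did not overlap, and the difference was -0.41 ± 0.12 (95% interval -0.66 to -0.16). Nasp, a histone chaperone, was at 20.2 ± 1.98 CPM in NP and 30.3 ± 2.97 CPM in NV. Acot13, a mitochondrial acyl-CoA thioesterase, was at 48.6 ± 4.44 and 64.2 ± 2.90 CPM, and Gipc2, a PDZ scaffold protein, at 57.9 ± 5.51 and 76.7 ± 7.18 CPM. Ptgr1, a reductase that inactivates prostaglandins and leukotrienes, was the furthest at -1.11 ± 0.35, from 4.49 ± 1.23 CPM against 9.99 ± 2.31 CPM. Its counts were 7, 8, 3 and 7 in NP and 16, 15, 12 and 11 in NV. Eef1d, a translation elongation factor, Arfgef3 and Fam133b overlapped between the groups. Llph and Ak6 did not overlap, but with their sequence groups summed their differences shrank from -0.77 and -0.72 to -0.23 and -0.10.

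**Figure D4:**
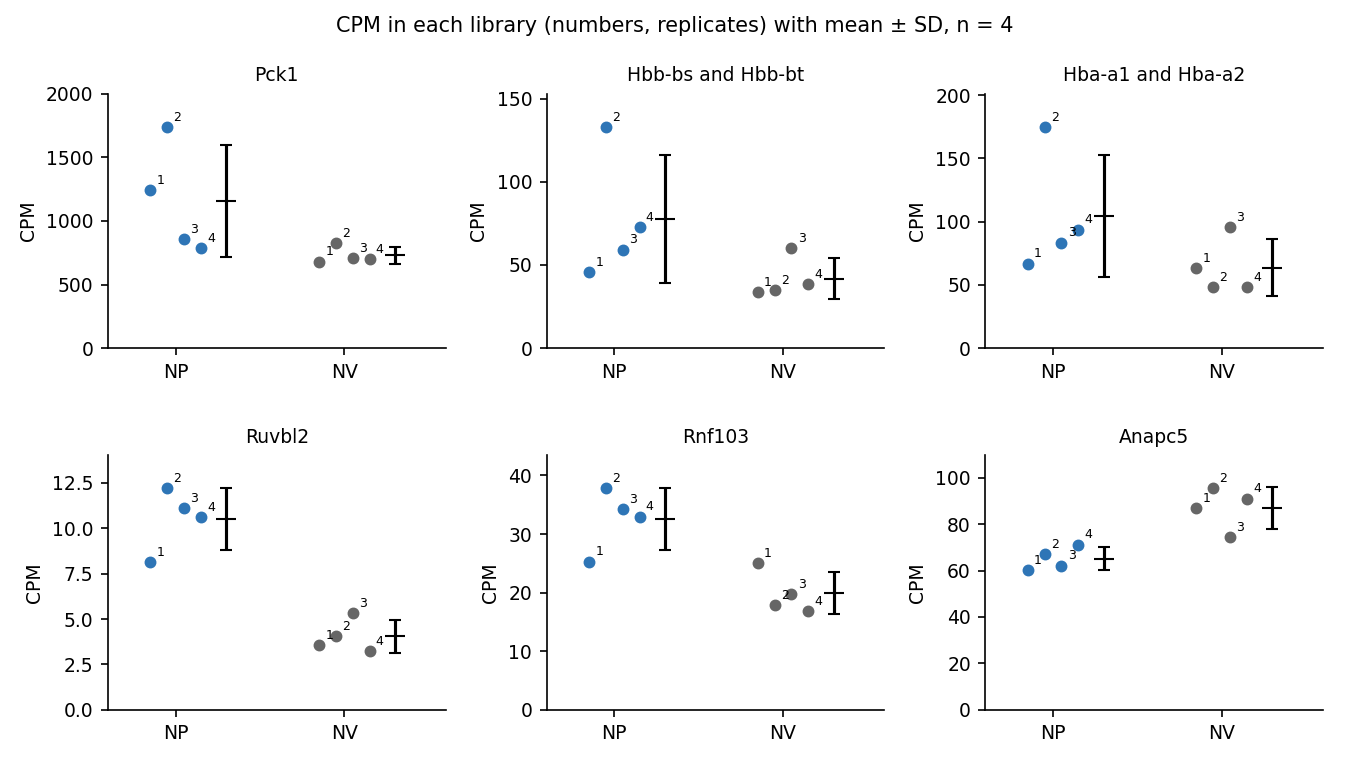
CPM in each NP and NV library, with mean ± SD (n = 4), for Pck1, the summed beta and alpha haemoglobins, Ruvbl2, Rnf103 and Anapc5. NP replicate 2 is the highest point for Pck1 (1740 CPM) and both haemoglobin sums, while Ruvbl2, Rnf103 and Anapc5 show no overlap.

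No nephron marker passed the test, and most were bounded within 2-fold. Markers of 8 segments or cell types were listed, 86 genes, of which 77 passed the count filter. None was called by edgeR, 4 had an unadjusted p under 0.05 (5.19%, against 3.3% of all genes), and the list medians ran from -0.09 to 0.17 against 0.0 for all genes tested. Intervals within 2-fold were found for 74 of the 77 (96.1%, against 87.2% of all genes) and within 1.5-fold for 51 (66.2%, against 46.3%). Among all tested genes at 5 to 6 log2 CPM the shares were 99.3% and 85.8%, so such intervals are not particular to the markers.

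Proximal tubule markers had the highest sum of the nephron lists. The 18 genes of the convoluted part summed to 12400, 14800, 13000 and 13900 CPM in NP and 14200, 11900, 13900 and 14100 CPM in NV. All 18 intervals lay within 1.5-fold, and 9 differences were positive and 9 negative. Slc34a1, the phosphate carrier of the brush border, was the highest per length at 575 ± 46.1 CPM per kilobase (SD, 8 libraries), with a difference of -0.02 (95% interval -0.26 to 0.22). Lrp2, the endocytic receptor megalin, was at 177 ± 18.4 CPM per kilobase with 0.04 (-0.22 to 0.30), and Slc5a2, the glucose carrier SGLT2, at 61.3 ± 8.10 CPM per kilobase with 0.05 (-0.22 to 0.31). In the straight part, Slc7a13, an amino acid carrier, differed by -0.01 (-0.28 to 0.26). Slc6a18, a neutral amino acid carrier, had an unadjusted p of 0.012 with 0.33 (0.08 to 0.58), from 176, 269, 239 and 211 CPM in NP and 184, 173, 175 and 180 CPM in NV. Slc22a7, an organic anion carrier with widely spread libraries, was the member whose interval left 2-fold (-0.54, -1.12 to 0.04).

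No marker of the loop and distal segments passed the test either. Umod, the urinary protein uromodulin of the thick ascending limb, had 878, 1330, 1120 and 1350 CPM in NP and 1080, 1090, 1010 and 1130 CPM in NV. Its difference was 0.12 (-0.15 to 0.38), and that of Slc12a1, the furosemide-sensitive cotransporter, was 0.01 (-0.26 to 0.27). In the distal convoluted tubule Slc12a3, the thiazide-sensitive cotransporter, differed by 0.04 (-0.21 to 0.29). Calb1, the calcium-binding protein of the distal and connecting tubule, had 367, 320, 274 and 324 CPM in NP and 424, 341, 416 and 411 CPM in NV. The groups overlap only through NP replicate 1 and NV replicate 2, and the difference was -0.31 (-0.54 to -0.08, unadjusted p = 0.012). Of the 10 tested members of that list 7 were negative, with a median of -0.09.

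Collecting duct and glomerular markers were lower in count and less sharply bounded. Aqp2, the vasopressin-regulated water channel of principal cells, had 16.3, 37.8, 26.9 and 25.7 CPM in NP and 30.8, 35.1, 20.5 and 28 CPM in NV, a difference of -0.07 (-0.54 to 0.40). Atp6v1g3, a proton pump subunit of intercalated cells, had 32.6, 23.7, 30.6 and 27.7 CPM in NP and 36.6, 39.2, 38.8 and 34.5 CPM in NV. Its groups do not overlap, yet the difference of -0.39 (-0.72 to -0.06) did not pass, and the other 9 tested members of the list lay between -0.22 and 0.38. In podocytes, Podxl differed by 0.02 (-0.20 to 0.23) and Nphs1, nephrin, by 0.16 (-0.27 to 0.59). The thin limb list had 3 tested genes, 0 of them within 1.5-fold, with Epha7, an ephrin receptor, at -0.79 (-1.55 to -0.04).

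**Figure D5:**
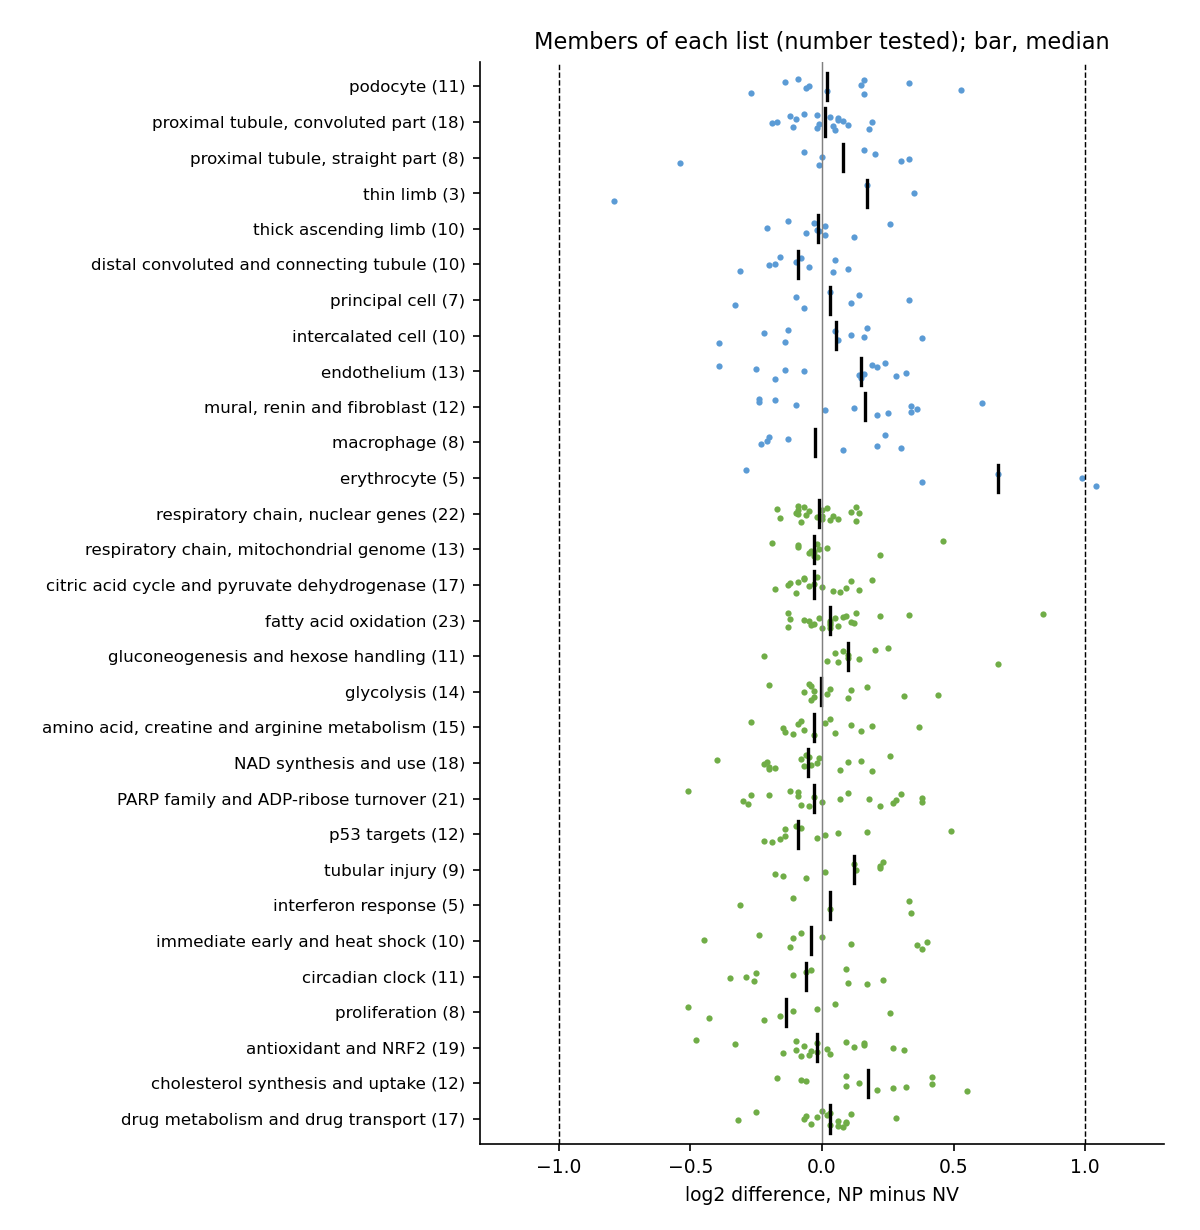
Log2 difference between NP and NV of each tested member of the marker lists (blue) and programme lists (green) with at least 3 tested members, with the median of the list as a black bar and dashed lines at a 2-fold difference. List medians lie near 0 except for the erythrocyte list at 0.67, and Hba-a1 is the sole member past a dashed line.

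Genes of energy metabolism had narrow intervals. Of 117 listed genes 115 were tested, 0 were called by edgeR and 4 had an unadjusted p under 0.05 (3.48%, against 3.3% of all genes). Intervals within 1.5-fold were found for 107 (93.0%, against 46.3%) and within 25% for 48 (41.7%, against 8.56%). Among all tested genes at 6 to 7 log2 CPM 96.5% lay within 1.5-fold, so narrow intervals are not particular to these lists. Medians of the 7 lists ran from -0.03 to 0.10.

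All 22 nuclear genes of the respiratory chain had intervals within 1.5-fold, and Cox6c at -0.17 and Uqcrc2 at 0.14 were the extremes. The 13 protein genes of the mitochondrial genome summed to 253000, 205000, 230000 and 188000 CPM in NP and 214000, 242000, 241000 and 203000 CPM in NV. They hold the first 9 ranks of expression per length, led by mt-Atp6 at 29700 ± 7560 and mt-Co1 at 27500 ± 1670 CPM per kilobase (SD, 8 libraries). Their median difference was -0.03, and 10 of the 13 were negative. The highest was mt-Atp8, an ATP synthase subunit whose coding sequence overlaps that of mt-Atp6, at 0.46 (0.09 to 0.83, unadjusted p = 0.017, edgeR). It had 1160, 1160, 1110 and 2010 CPM in NP and 1030, 901, 1250 and 771 CPM in NV. The groups overlap, and NP replicate 4 is the high library. The difference was -0.19 (-0.60 to 0.23) for mt-Atp6 and 0.22 (-0.10 to 0.54) for mt-Nd3. Summed with Gm28438 of its sequence group, mt-Nd3 was at 0.34 (0.11 to 0.56). The 17 genes of the citric acid cycle and pyruvate dehydrogenase all lay within 1.5-fold. Among them Ogdh, 2-oxoglutarate dehydrogenase, differed by 0.00 (-0.21 to 0.21).

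Fatty acid oxidation, the main fuel pathway of proximal tubule, had 21 of 23 intervals within 1.5-fold and a median of 0.03. Acadm, the medium-chain dehydrogenase, differed by -0.13 (-0.37 to 0.10), Cpt1a, which admits fatty acids to mitochondria, by 0.00 (-0.20 to 0.19) and Ppargc1a, the coactivator of mitochondrial biogenesis, by 0.13 (-0.13 to 0.40).

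Gluconeogenesis and hexose handling was the programme with the highest median among the metabolic lists, 0.10, and 10 of its 11 genes were positive. Its sum was 5800, 7120, 5610 and 5560 CPM in NP and 5620, 4890, 5550 and 5440 CPM in NV, so that the groups overlap. Outside Pck1 the differences were small. Fbp1, fructose bisphosphatase, differed by 0.02 (-0.21 to 0.25), G6pc, the catalytic subunit of glucose 6-phosphatase, by 0.06 (-0.35 to 0.47) and Glud1, glutamate dehydrogenase, by 0.25 (-0.01 to 0.51). Glycolysis had a median of 0.0 over 14 genes, with Pfkp, the platelet form of phosphofructokinase, the furthest at 0.44 (0.04 to 0.84, unadjusted p = 0.033). The amino acid, creatine and arginine list had a median of -0.03 over 15 genes.

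The lists for the targets of the drug and for their substrate pathway had medians near 0, with single genes less sharply bounded. Parp1 had 31.8, 38.4, 39.9 and 28.4 CPM in NP and 30.1, 33.4, 38 and 41 CPM in NV, fully overlapping, with a difference of -0.05 (-0.40 to 0.29). Parp2, the second DNA-damage polymerase, was at 9.70 ± 3.69 and 8.23 ± 4.03 CPM, with 0.22 (-0.58 to 1.03). Of 21 tested members of the PARP and ADP-ribose list 0 had an unadjusted p under 0.05 (3.3% of all genes did). The median was -0.03, and 18 intervals lay within 2-fold (85.7%, against 87.2% of all genes). Within 1.5-fold there were 6 (28.6%, against 46.3%). Tnks, a tankyrase, was closest with 0.27 (-0.01 to 0.55), and Hpf1, the partner that directs ADP-ribose to serine, lowest with -0.51 (-1.18 to 0.15). RNA levels do not report enzyme activity, so that inhibition itself cannot be read from these files. The NAD list had a median of -0.05 over 18 genes, and Nampt, the rate-limiting enzyme of NAD salvage, differed by 0.19 (-0.03 to 0.40) without overlap between the groups.

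Part of each stress and injury list fell below the count filter. The p53 list had 12 of 19 members tested, a median of -0.09 and 0 with an unadjusted p under 0.05. Its extremes were Ccng1, cyclin G, at -0.22 (-0.46 to 0.02) and Gadd45a, a DNA damage response gene, at 0.49. The tubular injury list had 9 of 16 tested, with a median of 0.12 and Spp1, osteopontin, at -0.06 (-0.28 to 0.17). The interferon list had 5 of 17 tested and a median of 0.03. Mki67, the proliferation marker, differed by -0.22 (-0.78 to 0.34), and Rrm1, a ribonucleotide reductase subunit, by -0.51 (-0.94 to -0.07, unadjusted p = 0.026), as the extreme of 8 tested proliferation genes.

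Cholesterol synthesis had the highest median of the 18 programme lists, 0.18, with 9 of 12 genes positive. Insig1, a sterol sensor of the pathway, had 37.5, 58.5, 52.9 and 62.0 CPM in NP and 41.6, 40.8, 38.8 and 37.7 CPM in NV. NP replicate 1 lies below the NV range, whereas the other 3 NP libraries lie above every NV library. The difference was 0.42 (0.10 to 0.75, unadjusted p = 0.014), and it did not pass the adjustment over all genes (edgeR).

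Other cell types were compared through their summed markers. Endothelial markers summed to 433 to 522 CPM in NP and 391 to 483 CPM in NV, macrophage markers to 171 to 238 and 139 to 227 CPM, and mural and fibroblast markers to 382 to 448 and 268 to 485 CPM. Neutrophil markers had 0 of 6 members tested and lymphocyte markers 1 of 9. Red cell markers summed to 159, 350, 179 and 205 CPM in NP and 141, 134, 211 and 129 CPM in NV. Every one of these sums overlaps between the groups. Over all 35 lists, 375 of 484 genes were tested and 0 were called (edgeR). Of those tested, 15 had an unadjusted p under 0.05 (4.0%, against 3.3% of all genes) and 349 had intervals within 2-fold (93.1%, against 87.2%). The last share depends on expression, as given above.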

How the data were processed

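RNA of whole kidney was sequenced. The authors deposited 1 table of expected counts, in whole numbers and without normalisation, that covers 40472 genes and 16 libraries. The submitters' processing notes name the tools FastQC 0.11.3, Trim Galore 0.6.6, Salmon 1.3.0, DESeq2 1.30.1 and the build GRCm39. Salmon divides reads that fit several transcripts among them, which matters for near copies. No source used here says whether molecular identifiers were counted. Symbols of 40276 gene IDs, lengths and sequences came from GENCODE M21 (GRCm38).

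The 8 NP and NV libraries were fitted with edgeR 4.0.16 (R 4.3.3) on the counts, with TMM scaling, filterByExpr at a minimum count of 10 and the group as the only term. Adjusted p-values are Benjamini-Hochberg values over all genes tested, with a threshold of 0.05. The 95% intervals use the SE implied by the test (89 genes with a statistic near 0 use the coefficient's own SE). The fit was tested on simulated data. Members and lists were chosen with earlier results of these data known. Genes named are the 10 with the smallest p in each direction at a mean log2 CPM of at least 3 (numbered models, receptors and immunoglobulin segments left out), every gene called in the fit or an alternative listed at the outset (except those called only without a filter), the 3 highest and the smallest-p member of each list, a preset list, and the 10 most variable genes at a mean of at least 5. Of these 151 genes, those that carry a comparison are printed, and other list members named for their role were chosen after their values were seen. Alternatives were limma 3.58.1, DESeq2 1.42.0, other scaling and filters, a replicate block, the number in the library codes as a term, leaving out each library, and, chosen after seeing the data, sequence groups summed, the Gm10800-like share as a term and named genes only. Genes were linked where 1 transcript shares at least 50% of its 31-base words with another gene. A sequence group holds all genes linked directly or through others. Spread between libraries of 1 group was larger than sampling noise in every pair, and depth limits counting precision as the intervals show. Some list members that enter the counts and medians are not reported here by name.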

Additional observations from a re-analysis of the deposited data

Results flagged for a closer look

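In a group of 4 libraries, the highest or lowest library was marked when its gap to the nearest other took up most of the range. Of 150 groups tested 18 were marked, and chance marks about 1 in 20. NV replicate 2 carries 7 of the marks. It had the highest share of Gm10800-like counts, 21.5% against at most 16.4% in the other NV libraries. It was also the lowest of its group in the summed CPM of the convoluted proximal tubule (11900), glycolysis (2540), tubular injury (679) and antioxidant genes (18300) and in Slc34a1 (2380 CPM). Gm3411 had 4.89 CPM there and 0 in the other NV libraries.

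NV replicate 3 was the highest of its group in red cell markers (211 CPM), in Hbb-bs (53.2 CPM) and in skeletal muscle markers (5.32 CPM). NP replicate 2 was the highest NP library in citric acid cycle genes (3960 CPM) and in gluconeogenesis genes (7120 CPM, against 5560 to 5800 in the other NP libraries). NV replicate 4 had the highest total of its group (1538622 counts) and the lowest sum of NAD genes (841 CPM). Single genes marked were Gm45140 (5.70 CPM) and Klk1b21 (20.4 CPM) in NP replicate 1, both at 0 in the other NP libraries, Arfgef3 (33.4 CPM) in NP replicate 3 and Atn1 (47.3 CPM) in NV replicate 1.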

How the results depend on the processing

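The number of genes past the threshold was 3. It was 0 with all 16 libraries in 1 fit (lowest adjusted p = 0.16, 501 genes at an unadjusted p under 0.05), 0 with a mean count of at least 20 (258 such genes), 0 with sequence groups summed, 1 with DESeq2 on the same genes, 4 with DESeq2 on all genes (1 of them, Hist2h2aa2, among the 3), 2 with limma-voom and 2 with the library code number as a term (Gm45140 and Hist2h2aa2 in both), 5 with the Gm10800-like share as a term and 87 with no filter. Leaving out 1 library gave 2 to 4 calls. Gm45140 and Hist2h2aa2 were called in each of these 8 fits and Rab43 in 2 of them. Without NP replicate 1, Klk1b21 and Gm49356 were called, and without NV replicate 2, Gm3411. The number of genes with an interval within 2-fold ran from 7087 with the count filter of 20 to 10109 with no filter, beside 9389. As a share of the genes tested, 87.2%, it moved further, to 25.4% with no filter, 66.5% with all 16 libraries, 69.8% with 99% intervals, 78.1 to 79.7% without 1 library and 97.6% with the count filter of 20. The difference in total count reversed without NP replicate 3 (64600) and without NV replicate 4 (13900), and ran from -94900 to 64600 over the libraries left out. The median of the thin limb list, with 3 genes, went from 0.17 to -0.03 without NP replicate 2. No sign was seen that replicate numbers pair the libraries. Deviations of same-numbered NP and NV libraries correlated at -0.24 to 0.027, and those of other numbers at -0.18 to 0.24. Of the NP libraries, 0 of 4 were closest to their own number. With 4 libraries per group this cannot exclude a paired design. With a replicate block 2 genes were called, Gm45140 and Hist2h2aa2, and 9074 intervals lay within 2-fold. The causes of these shifts were not tested. Depth limits every statement on genes under about 10 counts per library.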

Other observations

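Some abundant genes varied widely between libraries of the same group. Among genes with a mean of at least 5 log2 CPM, Rpl10a, a ribosomal protein gene, had the largest SD around the group means, 0.87 on the log2 scale. Its sum with the copy Rpl10a-ps1 had an SD of 0.15 and a difference of 0.00 (95% interval -0.27 to 0.28). Nnt, the mitochondrial transhydrogenase that makes NADPH, is listed under 2 gene models that trade counts. The first had 92.0, 57.2, 135 and 45.5 CPM in NP and 148, 102, 132 and 43.6 CPM in NV, and the other 39.1, 103, 21.3 and 98.9 CPM in NP and 0, 19.6, 0 and 98.2 CPM in NV. Their sum was even, at 131, 160, 157 and 144 CPM in NP and 148, 122, 132 and 142 CPM in NV.

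Some variable genes are not in a group of near copies. Col3a1, a fibrillar collagen of interstitial fibroblasts, ran from 46.3 to 120 CPM in NP and from 30.2 to 108 CPM in NV. Slco1a1, an organic anion transporter of male proximal tubule, ran from 67.7 to 216 CPM in NP and from 89.6 to 226 CPM in NV. C3, the central complement component, had 117, 105, 222 and 103 CPM in NP and 103, 50.6, 98.8 and 72.2 CPM in NV, chosen here after its values were seen. Its difference was 0.72 (0.25 to 1.20, unadjusted p = 0.0049, adjusted p = 1.0, edgeR), and NP replicate 3 is the high library.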
